A study of Mus musculus with 36 samples.

Results

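The genes described here encode voltage-gated sodium and calcium channels. They were taken from 2 deposited tables of mouse striatal RNA as every row whose symbol begins with Scn and ends in a number with the letter a or b, or begins with Cacna, Cacnb or Cacng. The rule found 40 rows with 39 symbols among the 22322 rows with values in both tables. They comprise 10 rows for sodium channel pores, 4 for sodium channel beta subunits, 10 for calcium channel pores, 4 for alpha2-delta subunits, 4 for calcium channel beta subunits and 8 for gamma proteins. Scn8a stands under 2 Ensembl identifiers, which are counted as 2 genes and given apart. The symbol Scn2a1, an older name for the gene of another major brain sodium channel, falls outside the rule and is described separately.

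Sodium channel pores open when the membrane depolarizes and carry the upstroke of the action potential. Their beta subunits are adhesion-like membrane proteins that alter gating and surface expression, and the beta4 subunit encoded by Scn4b is known for its abundance in striatal projection neurons and for resurgent sodium current. Calcium channel pores let calcium in on depolarization and couple firing to transmitter release, to dendritic signals and to gene transcription. Alpha2-delta and beta subunits bring the pores to the membrane. Most brain gamma proteins (Cacng2, Cacng3, Cacng4, Cacng5, Cacng7 and Cacng8) act chiefly as auxiliary subunits of AMPA glutamate receptors. Scn7a encodes a relative that senses extracellular sodium and is not a classical voltage-gated channel.

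RNA was collected by translating ribosome affinity purification. A chosen cell type carries a fluorescent tag on its ribosomes (eGFP fused to L10a), antibodies pull these down with the RNA they hold, and the unbound RNA of the tissue stays behind. In the first line the tag was in microglia (Cx3cr1CreErt2/+(Litt) with Eef1a1LSL.eGFPL10a/+, with tamoxifen given at 4 to 6 weeks), and Camk2a-tTA drove TetO-Chrm3 or TetO-Chrm4 in forebrain neurons. Both are designer receptors: the Chrm3 type excites the neurons that carry it and the Chrm4 type silences them. These mice received clozapine-N-oxide (CNO), the ligand of such receptors, or saline 2 h before the striatum was taken. Microglial pull-downs and unbound RNA each had 3 CNO and 3 saline libraries from Chrm3 mice and 2 CNO and 2 saline libraries from Chrm4 mice. No group received CNO without a receptor, so a response to the receptor cannot be told apart from one to CNO alone. In the second line Drd1-eGFPL10a tagged D1 neurons, the striatal projection neurons that carry the dopamine D1 receptor. It gave 3 D1 pull-downs labelled Il34 knockout and 4 labelled control, with 4 unbound libraries for each label. Both sets carry Il34-/- in their source label, controls included, and Drd1-Cre stands only in that of the knockouts. Il34, the neuronal ligand of the microglial receptor Csf1r, had 11.1, 9.84 and 9.90 RPKM in the D1 pull-downs labelled knockout, against 6.56, 9.87, 9.19 and 10.5 RPKM in those labelled control. In unbound RNA it had 3.14, 2.29, 2.02 and 2.61 RPKM under the knockout label, against 2.57, 2.66, 2.80 and 3.37 RPKM under the control label. The groups overlapped in both fractions and neither difference passed the threshold (limma adjusted p = 1.00 each), so Il34 did not check the label and these groups are called by their labels throughout. Nothing in the labels says whether replicates came from separate animals, so p-values measure the spread between these libraries, which may be technical. Libraries are numbered by their order in the table, within a group.

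The libraries held 14.1 to 107.3 M (mega) reads in genes in the microglial pull-downs, 12.1 to 108.6 M in the unbound RNA of the same line, 24.4 to 40.9 M in the D1 pull-downs and 11.2 to 29.0 M in the unbound RNA of the D1 line. All 8 microglial markers examined were higher in the microglial pull-downs, where their summed level ran from 3452.8 to 5487.4 RPKM, against 24.5 to 43.4 RPKM in unbound RNA. The 6 pan-neuronal markers summed to 499.7 to 951.9 RPKM in those pull-downs, against 2505.7 to 4539.4 RPKM in unbound RNA, so neuronal RNA was present in the microglial fraction. The 5 D1-neuron markers summed to 1034.4 to 1503.1 RPKM in the D1 pull-downs labelled knockout and 1134.4 to 1300.6 RPKM in those labelled control, against 177.8 to 260.8 RPKM in the unbound RNA labelled knockout and 189.6 to 246.5 RPKM in the unbound RNA labelled control. The 5 D2-neuron markers summed to 142.5 to 156.8 and 118.8 to 187.0 RPKM in the same D1 pull-downs, against 319.3 to 452.4 and 337.8 to 515.6 RPKM in the unbound RNA. The 4 cortical neuron markers set library 1 apart in each D1-line group, at 64.9 RPKM in the knockout-labelled and 63.8 RPKM in the control-labelled pull-downs, against 8.1 to 12.1 and 8.5 to 22.3 RPKM in the other pull-downs. Unbound RNA gave 49.0 RPKM in knockout-labelled and 38.8 RPKM in control-labelled library 1, against 2.6 to 6.1 and 4.3 to 12.6 RPKM in the others. In all these fractions, fewer cells of a type and less RNA per cell cannot be told apart.

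Several of the genes lie in tight clusters. On GRCm38, with a gap of at most 500 kb, Scn1a, Scn9a and Scn7a shared chr2:66270778-66784914, Scn2b and Scn4b shared chr9:45117782-45154152, Cacng7, Cacng8 and Cacng6 shared chr7:3332955-3435667, and Cacng1, Cacng4 and Cacng5 shared chr11:107703218-107915055. Cluster members shared a level in some cases and not in others: Scn2b and Scn4b were both abundant, while Scn9a and Scn7a stayed under 1 RPKM beside Scn1a. Of the 39 genes with a GENCODE position, which the second Scn8a identifier lacks, 23 overlapped another annotated gene, 22 of them a gene on the opposite strand, whose reads cannot be told apart from theirs because the strand setting of the counting is not given in the sources used here.

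The 250 bases upstream of the RefSeq gene start on GRCm38.p6, written 5′ to 3′ on the plus strand, are given for the neighbours Scn4b (chr9:45138374-45138623) and Scn2b (chr9:45117626-45117875), which are the most abundant sodium channel beta subunits, and for Cacna2d1 (chr5:15934441-15934690), the alpha2-delta gene furthest below the unbound RNA in microglial pull-downs. Capitals mark TGACG, a half-site of the activity-regulated factor CREB, searched on both strands.
Scn4b: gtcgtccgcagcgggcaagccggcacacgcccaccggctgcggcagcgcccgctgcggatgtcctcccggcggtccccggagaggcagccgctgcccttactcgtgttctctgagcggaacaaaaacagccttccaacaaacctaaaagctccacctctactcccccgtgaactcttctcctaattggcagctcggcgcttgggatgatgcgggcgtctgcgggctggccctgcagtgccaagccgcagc
Scn2b: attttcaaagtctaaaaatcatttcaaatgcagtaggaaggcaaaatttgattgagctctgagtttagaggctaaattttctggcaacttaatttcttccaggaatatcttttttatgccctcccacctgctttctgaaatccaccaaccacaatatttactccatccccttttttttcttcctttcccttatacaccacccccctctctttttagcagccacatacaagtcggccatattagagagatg
Cacna2d1: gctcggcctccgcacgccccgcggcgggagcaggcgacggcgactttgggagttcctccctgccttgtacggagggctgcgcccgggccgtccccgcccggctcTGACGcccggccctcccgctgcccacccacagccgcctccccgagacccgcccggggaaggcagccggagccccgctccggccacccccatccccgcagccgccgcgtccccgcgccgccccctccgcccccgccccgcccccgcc
The GENCODE genes start inside 2 of these windows, Scn4b at chr9:45138395 and Scn2b at chr9:45117782. Most of the Scn4b window and part of the Scn2b window thus lie within the annotated gene, and the Cacna2d1 window lies before it. The adjacent Scn4b and Scn2b windows differ in composition, with 66.0% G and C and 23 CpG pairs in Scn4b and 38.4% and 1 CpG pair in Scn2b. The Cacna2d1 window had 82.4% G and C and 36 CpG pairs. TGACG stood once in the Cacna2d1 window and in neither of the other two. It was found for 6 of the 29 member symbols with a RefSeq window (Cacna1b, Cacna1c, Cacna1i, Cacna2d1, Cacnb2 and Scn10a), which have 39 windows among them. Of all 32851 windows of this length 17.8% held it, a share per window and not per symbol. A match of these letters is a description and not a binding site.

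Levels were read in RPKM, which divides a gene's reads by its length and by the size of the library, so that genes can be compared per length. In unbound striatal RNA of saline-treated mice, the calcium channel subunit gene Cacnb4 and the sodium channel subunit gene Scn4b had the highest mean levels of the whole family, and the highest sodium and calcium pore genes lay below the highest auxiliary genes. 19 of the 40 genes averaged 10 RPKM or more, and 11 averaged under 1 RPKM.

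Among sodium channel pores, Scn8a (ENSMUSG00000023033), the channel of the axon initial segment and nodes, came first with 34.9, 37.2 and 34 RPKM in Chrm3 mice and 34.2 and 40.2 RPKM in Chrm4 mice given saline. Scn1a (chr2:66270778-66440840, minus strand), best known from fast-spiking interneurons, had 16.2, 19, 18, 19.8 and 18.9 RPKM in the same libraries. The ranges of these pore genes did not overlap. Scn3a, an embryonic form, averaged 6.18 ± 0.93 RPKM (SD, n = 5), and the second Scn8a identifier averaged 1.47 ± 0.57 RPKM (SD, n = 5). Scn9a, Scn7a, Scn10a, Scn11a and Scn4a, known mainly from peripheral neurons, glia and muscle, averaged between 0.902 and 0.008 RPKM.

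Sodium channel beta genes were abundant. Scn4b (ENSMUSG00000046480, chr9:45138395-45154152, plus strand) had 75.8, 36.6 and 56.8 RPKM in the Chrm3 mice and 71.8 and 58.5 RPKM in the Chrm4 mice. Scn2b had 49.5, 53.5, 50.4, 53.7 and 47.7 RPKM in those libraries, inside the much wider range of Scn4b. Scn3b averaged 23.2 ± 2.23 RPKM (SD, n = 5) and lay clear below both.

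Among calcium channel pores, Cacna1e, the R-type channel, was first with 31.1, 27.7, 22.1, 24.5 and 29.3 RPKM in the saline libraries. Cacna1b, the N-type channel of presynaptic terminals, had 13.7, 12, 12.1, 11.7 and 13.9 RPKM, clear below Cacna1e. Cacna1c and Cacna1a, the L-type and P/Q-type pores, followed at means of 5.97 and 5.74 RPKM. The T-type pores averaged 4.80 RPKM for Cacna1i, 2.40 RPKM for Cacna1h and 1.7 RPKM for Cacna1g, and the L-type pore gene Cacna1d averaged 3.35 RPKM. Cacna1f and Cacna1s, pores of retina and skeletal muscle, were at 0.025 and 0.016 RPKM.

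The auxiliary calcium channel genes differed more widely. Cacnb4 (chr2:52428320-52676831, minus strand) had 77.6, 84.8, 82.1, 79.6 and 85.8 RPKM in the saline libraries. Its closest relative in level was Cacnb3, with 25.4, 39.8, 37.1, 33.7 and 43.3 RPKM, and the ranges did not overlap. Cacnb2 averaged 23.9 ± 3.36 RPKM and Cacnb1 15 ± 2.46 RPKM (SD, n = 5 each). Of the alpha2-delta genes, Cacna2d3 had 23.8, 18.3, 25.3, 23.1 and 20.6 RPKM. Cacna2d1, a binding site of gabapentin, had 13.3, 18.1, 12.8, 14.4 and 20.1 RPKM, so the 2 overlapped. Cacna2d2 averaged 10.7 ± 1.48 RPKM (SD, n = 5) and Cacna2d4 0.332 RPKM.

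In the gamma family, Cacng3 had 51.7, 47.9, 40.7, 44.8 and 67.1 RPKM in the saline libraries. Cacng7 (chr7:3332955-3368221, plus strand) had 32.4, 46.1, 35.8, 42.5 and 37.7 RPKM and overlapped Cacng3. Cacng4 averaged 32.2 ± 4.42 RPKM (SD, n = 5) and overlapped Cacng7. Cacng2, stargazin, averaged 23.1 RPKM, while Cacng8 and Cacng5 averaged 4.45 and 3.44 RPKM. Cacng1, a subunit of the skeletal muscle channel, averaged 0.902 RPKM, and Cacng6 was listed at 0 in every saline unbound library. Across the 40 genes the order of unbound levels was much the same in the 2 mouse lines (Spearman's rho 0.98 between the group means, a description over genes).

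**Figure D1:**
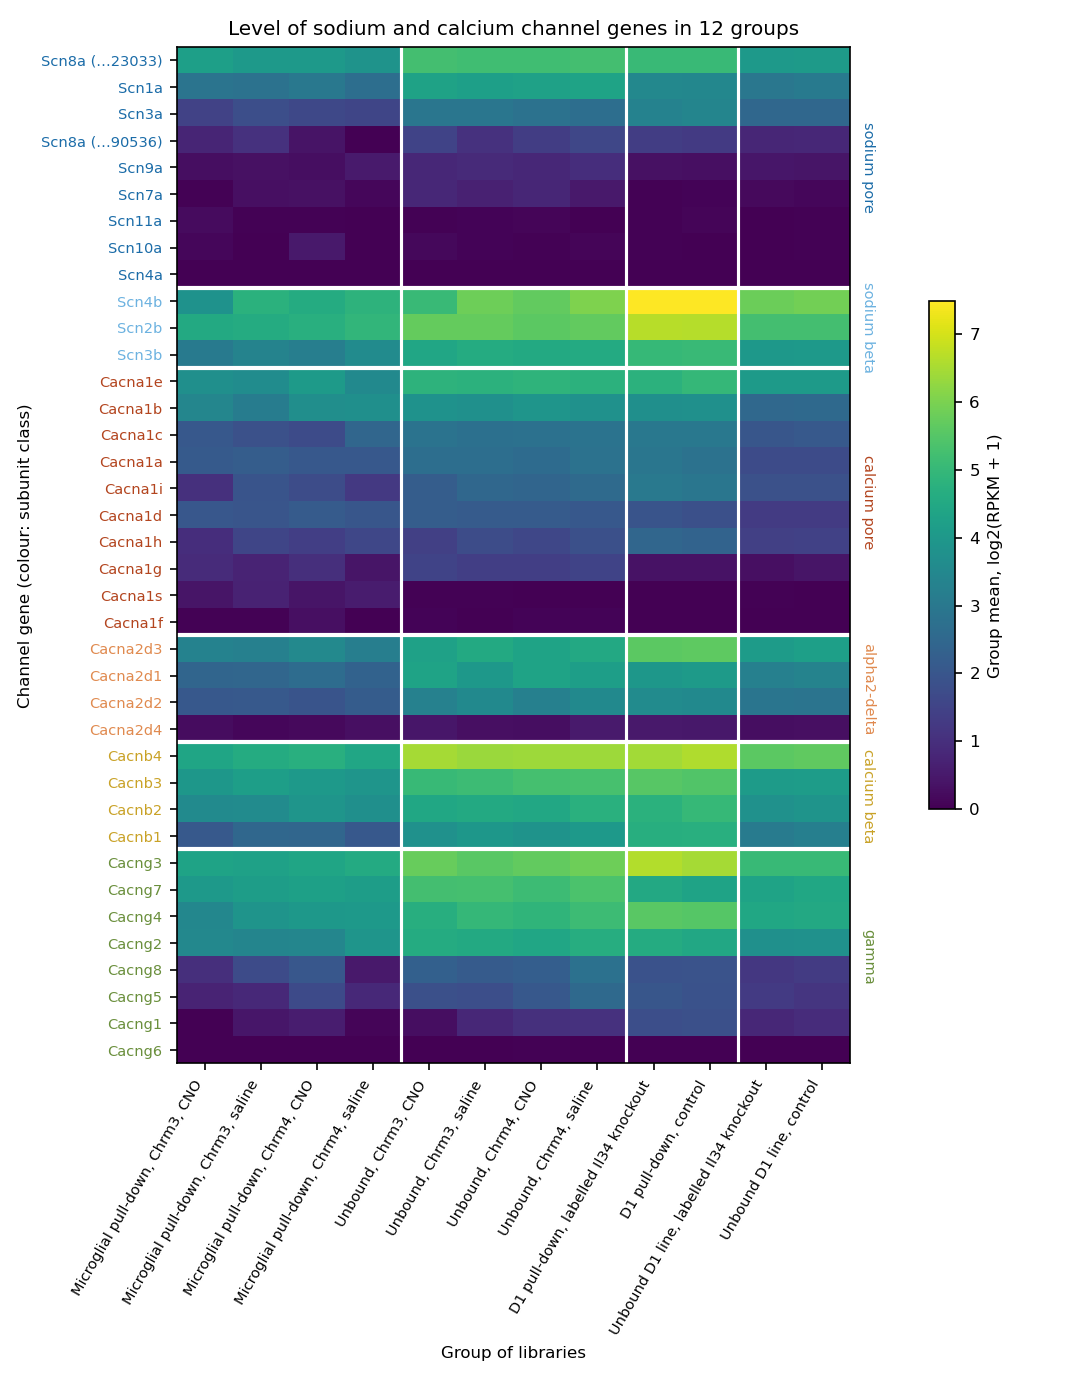
Mean RPKM of the channel genes (rows, by class) in the 12 groups of libraries (columns), as log2(RPKM + 1) on the colour scale. Cacnb4, Scn4b, Scn2b and Cacng3 are the brightest rows, and the genes of peripheral and muscle sodium channels are dark throughout.

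The channel genes were depleted from the ribosomes pulled down from microglia. In CNO-treated mice 25 of 29 tested genes were lower in the pull-down than in unbound RNA and 0 were higher (limma on log2(RPKM + 1), adjusted p under 0.05), where 32.7% of all genes tested were lower and 33.3% higher. In saline-treated mice the counts were again 25 lower and 0 higher, against 33.2% and 31.9% of all genes, and 24 genes were lower in both. Of these 24, Cacna1g and Scn8a (ENSMUSG00000090536) reached the mean of 1 RPKM needed for the test only through unbound RNA. With saline they averaged 1.70 and 1.47 RPKM there, against 0.55 and 0.67 RPKM in the pull-downs. Their lower calls were favoured by that filter and are no support for depletion. The median difference of the 29 genes was -1.05 on the log2 scale with CNO and -1.16 with saline, while the median of all genes was -0.00 and -0.03. In 22 of the 29 genes with CNO and 18 with saline, every pull-down library lay below every unbound library, as in 25.4% and 23.8% of all genes tested.

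The most abundant member had the largest difference on the log2(RPKM + 1) scale, which shrinks the differences of low genes. With CNO, Cacnb4 averaged 22.3 ± 4.57 RPKM in the pull-down and 85.8 ± 10.2 RPKM in unbound RNA (SD, n = 5 each), a log2 difference of -1.87 ± 0.16. It had 19, 16.7, 34.8, 22.1 and 19 RPKM in the pull-downs of saline mice, against 77.6 to 85.8 RPKM in their unbound RNA. Its saline mean in the pull-down was 27.2% of the unbound mean, against 27.1% for Cacnb1 and 23.9% for the low gene Cacng5, and it had a log2 difference of -1.89 ± 0.16 (SE; limma adjusted p = 5.98e-09). All 4 calcium channel beta genes were lower with saline, and Cacnb1 followed Cacnb4 at -1.77 ± 0.21 (limma adjusted p = 4.79e-07).

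The 3 tested alpha2-delta genes were also lower. Cacna2d1 (chr5:15934691-16374511, plus strand) had 2.69, 4.50, 6.45, 4.30 and 3.93 RPKM in the saline pull-downs, against 12.8 to 20.1 RPKM in unbound RNA. The groups were fully apart, with a log2 difference of -1.68 ± 0.17 (SE; limma adjusted p = 6.11e-08) and a pull-down mean at 27.8% of the unbound mean. Cacna2d2 and Cacna2d3 differed by -1.51 and -1.32 on the log2 scale.

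Among sodium channel genes, all 4 tested pore genes and the beta genes Scn2b, Scn3b and Scn4b were lower with saline. The 4 include the second Scn8a identifier, which was tested only through its unbound level. Scn1a had 3.45, 6.39, 8.34, 6.37 and 4.76 RPKM in the pull-downs, against 16.2 to 19.8 RPKM in unbound RNA. It was the most depleted pore gene, at -1.56 ± 0.17 (SE; limma adjusted p = 1.72e-07), with no overlap between the groups. Scn8a (ENSMUSG00000023033) differed by -1.30 ± 0.13 (limma adjusted p = 6.99e-08). Scn4b had 26.6, 13.9, 39.0, 31.3 and 23.3 RPKM in the pull-downs, against 36.6 to 75.8 RPKM in unbound RNA. The groups overlapped at 1 library, and the log2 difference was -1.17 ± 0.24 (limma adjusted p = 0.00027).

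The calcium channel pores were least depleted as a class, with 5 of 8 tested genes lower and a median of -0.67, against medians of -1.22 for sodium channel pores and -1.50 for calcium channel beta genes. The 5 include Cacna1g, which was tested only through its unbound level. Cacna1e had 9.03, 12, 13, 12.4 and 8.92 RPKM in the saline pull-downs, against 22.1 to 31.1 RPKM in unbound RNA, a log2 difference of -1.22 ± 0.17 (SE; limma adjusted p = 4.08e-06). Cacna1b had 5.69, 6.67, 11.4, 10.6 and 14.1 RPKM in the pull-downs, against 11.7 to 13.9 RPKM in unbound RNA. These overlapped, and the difference was -0.36 (95% interval -0.70 to -0.02, limma adjusted p = 0.0619). Cacna1h and Cacna1d gave -0.22 (interval -0.65 to 0.21) and -0.16 (interval -0.62 to 0.31), so a sizeable depletion like that of Cacna1e lay outside their intervals.

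Of the 6 tested gamma genes 5 were lower with CNO and 6 with saline. The exception, Cacng8, gave -0.79 with CNO (limma adjusted p = 0.0612). With saline it showed the largest difference of its class, -1.55 ± 0.36 on the log2 scale, at low levels of 0.153, 5.53, 1.1, 0.574 and 0.260 RPKM in the pull-downs, against 3.32, 4.37, 2.61, 6.45 and 5.51 RPKM in unbound RNA. A single Chrm3 pull-down library of 5.53 RPKM lay inside the unbound range. Cacng3 and Cacng7, the abundant members, differed by -1.28 and -1.26 with saline.

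**Figure D2:**
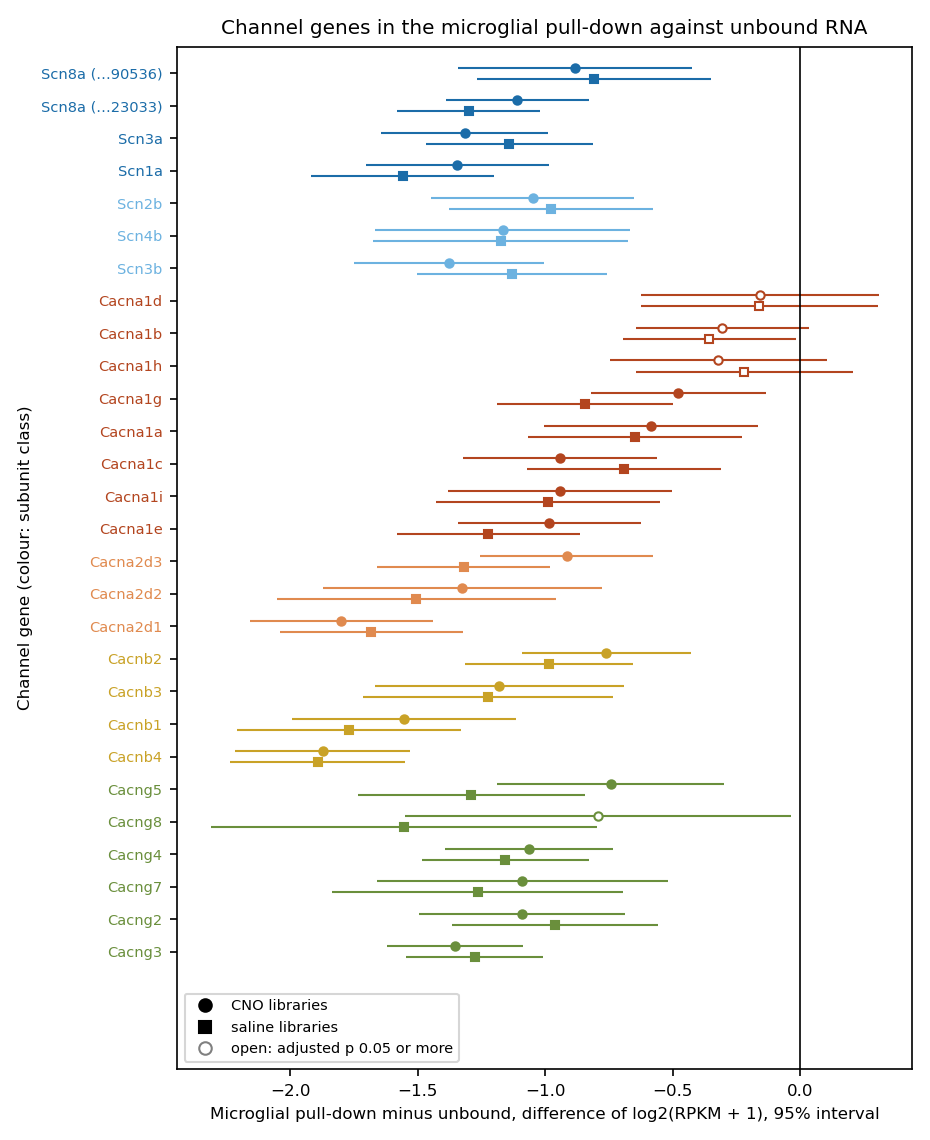
Log2 difference of RPKM + 1, microglial pull-down minus unbound RNA, for the tested channel genes (rows by class), with CNO as circles and saline as squares; bars are 95% confidence intervals and open symbols missed adjusted p 0.05. Every called gene lies left of 0, Cacnb4, Cacna2d1 and Cacnb1 furthest with saline, and Cacna1d, Cacna1h and Cacna1b lie nearest to it.

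The neuronal markers moved with the channel genes. The 6 pan-neuronal markers were all lower in the saline pull-downs, with a median of -2.01, the 5 D2-neuron markers had a median of -1.21 and the 5 D1-neuron markers -0.82. How much of the channel signal in the pull-downs came from neuronal RNA was not tested. The 3 endothelial markers summed to 1.1 to 6.8 RPKM in the pull-downs, against 0.2 to 0.9 RPKM in unbound RNA of the same line. Astrocyte and oligodendrocyte sums were lower in the pull-downs, and precursor sums were lower or overlapped. Single markers could go the other way. The astrocyte marker Slc1a3 had 6898 reads of 22.7 M in Chrm4 saline pull-down library 1, against 2917 of 23.6 M in unbound library 1. The precursor marker Cspg4 had 494 against 80 reads there. Of the channel partners, 8 of 9 tested sodium channel partners were lower, led by the modulator Fgf12 at 15.8 RPKM in the pull-downs, against 74.3 RPKM in unbound RNA (log2 difference -2.23). The sodium leak channel gene Nalcn and its partners Unc79 and Unc80 were all lower. Among 9 tested calcium channel partners 7 were lower and 1, Rrad, was higher. Rrad reached the mean of 1 RPKM needed for the test only through the pull-downs. Its higher calls were favoured by that filter and are no support for enrichment. The cell type that held its RNA was not tested. Rrad, a small GTPase that inhibits calcium channels, averaged 5.11 RPKM in pull-downs and 0.647 RPKM in unbound RNA with CNO (log2 difference 1.73, limma adjusted p = 0.00079), and 1.99 ± 1.31 and 0.279 ± 0.31 RPKM with saline (log2 difference 1.07, limma adjusted p = 0.0238). The saline call of Rrad was lost without Chrm3 pull-down library 3 (adjusted p = 0.0522), Chrm4 pull-down library 1 (0.09) or Chrm4 unbound library 2 (0.0881), by voom (0.0766) and without a filter (0.0676). That of Stac2, 1 of the 7 lower partners, was lost in 7 of 10 fits without 1 library, at adjusted p of 0.0549 to 0.0988. Over all 16 other settings the Stac2 call held in 8.

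A channel gene too low for the tests was seen in the pull-downs and hardly in unbound RNA. Cacna1s (ENSMUSG00000026407, chr1:136052750-136119822, plus strand), the pore of the skeletal muscle calcium channel, had 0.276, 0.319, 0.432, 0.415 and 0.283 RPKM in the pull-downs of CNO mice and 1.36, 0.263, 0.333, 0.258 and 0.71 RPKM in those of saline mice, against 0 to 0.06 RPKM in all 10 unbound libraries. The pull-down libraries stood wholly above the unbound ones, on 26 to 880 recovered reads against 0 to 21. How many of all genes did so is not given here. With the filter, 33.3% of all genes tested were higher with CNO and 31.9% with saline. Without a filter on low values the gene was higher in the pull-downs, by 0.39 on the log2 scale with CNO (limma adjusted p = 0.0347) and by 0.59 with saline (limma adjusted p = 0.00327). The antisense gene Gm37759 lies opposite its end at chr1:136116577-136119822 and Gm37014 lies inside it on the same strand at chr1:136057181-136059433, and which of them the reads came from was not tested. The cell type that held this RNA was not tested either. In the D1 line Cacna1s was at 0 to 0.04 RPKM.

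In Chrm3 mice no channel gene differed between CNO and saline past the threshold. In the unbound RNA of Chrm3 mice 0 of 29 tested genes passed adjusted p 0.05, where 0.701% of all genes tested did, and 4 genes had an unadjusted p under 0.05 (limma; voom on recovered reads also called 0 and had 4). The summed level of 5 early activity genes (Fos, Npas4, Egr1, Arc and Nr4a1) was 507.9 to 1683.9 RPKM in these CNO libraries, against 129.5 to 236.2 RPKM with saline. These activity markers were thus several times higher in the same libraries, with no overlap between the groups. The log2 differences of the channel genes ran from -0.72 to 0.46 with a median of 0.02, 17 positive and 12 negative, and the median of all genes was -0.07. Of the abundant genes, Scn2b differed by 0.02 (95% interval -0.21 to 0.24) and Cacnb4 by 0.11 (interval -0.13 to 0.35). The interval of Scn4b, also abundant, was wider and is given below.

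The gene furthest down was Scn4b. It had 28.2, 32.7 and 36.5 RPKM in the unbound RNA of Chrm3 mice given CNO, against 75.8, 36.6 and 56.8 RPKM with saline. All 3 CNO libraries lay below all 3 saline libraries. This held for 2 of the 29 tested channel genes, against 13% of all genes tested, and is thus no mark of the channel genes. For Scn4b the closest pair stood at 36.5 and 36.6 RPKM. The log2 difference was -0.72 ± 0.22 (SE; 95% interval -1.20 to -0.25), with an unadjusted p of 0.00616 and a limma adjusted p of 0.190. Over 12 other settings the adjusted p ran from 0.0405 to 0.455, and it passed the threshold only without saline library 2, the lowest saline library, where the log2 difference was -1.0. In the microglial pull-downs of the Chrm3 mice Scn4b had 9.38, 13.3 and 16.7 RPKM with CNO, against 26.6, 13.9 and 39.0 RPKM with saline (log2 difference -0.88 ± 0.32, limma adjusted p = 0.787).

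Chrm4 mice gave a smaller difference for Scn4b. In their unbound RNA it had 41.6 and 58.5 RPKM with CNO, against 71.8 and 58.5 RPKM with saline, so the groups met at 58.5 RPKM (log2 difference -0.39, limma adjusted p = 0.964). Their microglial pull-downs had 19.4 and 27.5 RPKM with CNO, against 31.3 and 23.3 RPKM with saline. The Chrm3 difference minus the Chrm4 difference in unbound RNA was -0.34 ± 0.35 (limma adjusted p = 0.897), so Chrm3 and Chrm4 mice were not shown to differ.

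Markers of cell types were read in the same Chrm3 unbound libraries. The 5 D2-neuron markers were all negative with CNO, none past the threshold, with a median of -0.46 and sums of 326.1 to 494.3 RPKM, against 376.3 to 563.0 RPKM with saline. The 5 D1-neuron markers, 2 positive and 3 negative with a median of -0.28 and none past the threshold, summed to 189.1 to 280.9 RPKM with CNO, against 157.3 to 240.6 RPKM with saline. The 4 cortical neuron markers were all positive with a median of 0.55, at 151.4 to 172.6 RPKM with CNO, against 74.7 to 163.8 RPKM with saline. The 5 oligodendrocyte markers summed to 367.0 to 414.1 RPKM, against 441.4 to 589.0 RPKM with saline, and the 8 microglial markers to 24.5 to 30.4 RPKM, against 32.7 to 43.4 RPKM. In Chrm4 unbound RNA the D2-neuron markers summed to 337.7 to 414.0 RPKM with CNO, against 559.8 to 704.9 RPKM with saline. Their part in the Scn4b values, and in those of the other channel genes, was not tested.

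Next by unadjusted p came 3 further genes. Cacng4 had 22.3, 24.0 and 27.8 RPKM in the Chrm3 unbound RNA with CNO, against 31.6, 28.8 and 31.8 RPKM with saline, with no overlap (log2 difference -0.31 ± 0.13, limma adjusted p = 0.342). Cacna2d1 had 17.3, 20.2 and 19.8 RPKM with CNO, against 13.3, 18.1 and 12.8 RPKM with saline, with the ranges overlapping at the highest saline library (log2 difference 0.37 ± 0.15, limma adjusted p = 0.349). The second Scn8a identifier had 1.93, 1.55 and 2.09 RPKM with CNO, against 0.811, 1.45 and 1.02 RPKM with saline (log2 difference 0.46, limma adjusted p = 0.290). It was also the only gene whose Chrm3 and Chrm4 differences in unbound RNA were apart at an unadjusted p under 0.05 (0.68 ± 0.26, limma adjusted p = 0.609).

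Of the channel partners, 1 inhibitor of calcium channels passed the threshold. Gem (ENSMUSG00000028214, chr4:11704457-11714752, plus strand) encodes a small GTPase that binds calcium channel beta subunits and lowers calcium current. It had 3.1, 8.54 and 5.11 RPKM in the Chrm3 unbound RNA with CNO, against 1.51, 0.993 and 0.320 RPKM with saline. Gem reached the mean of 1 RPKM needed for the test only through these CNO libraries. Its call was favoured by that filter and is no support for a rise. Every CNO library was above every saline library, and the log2 difference was 1.72 ± 0.31 (SE; limma adjusted p = 0.0340), the only 1 of 9 tested calcium channel partners to pass. That call was held by quantile scaling (adjusted p = 0.0288), voom on recovered reads (0.0244) and the fit without CNO library 1 (0.00661). All of these used the same filter. It was lost with a pseudocount of 0.1 (0.0575), with only the compared groups (0.0700), without any filter (0.267), without saline library 1 (0.0728), 2 (0.0644) or 3 (0.153), and without CNO library 2 (0.108) or 3 (0.119). The direction was the same in these 11 settings, at log2 differences of 1.41 to 2.74.

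In the microglial pull-downs of Chrm3 mice Gem had 0.794, 10.4 and 3.65 RPKM with CNO, against 0.125, 0.160 and 0.203 RPKM with saline (limma adjusted p = 0.515; 0.0243 without CNO library 1). In Chrm4 unbound RNA it averaged 0.632 RPKM with CNO and 0.892 RPKM with saline, and the Chrm3 difference minus the Chrm4 difference was 1.92 ± 0.49 (unadjusted p = 0.00213, limma adjusted p = 0.286). None of the 9 tested sodium channel partners and none of the 3 leak channel genes passed the threshold in Chrm3 unbound RNA.

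**Figure D3:**
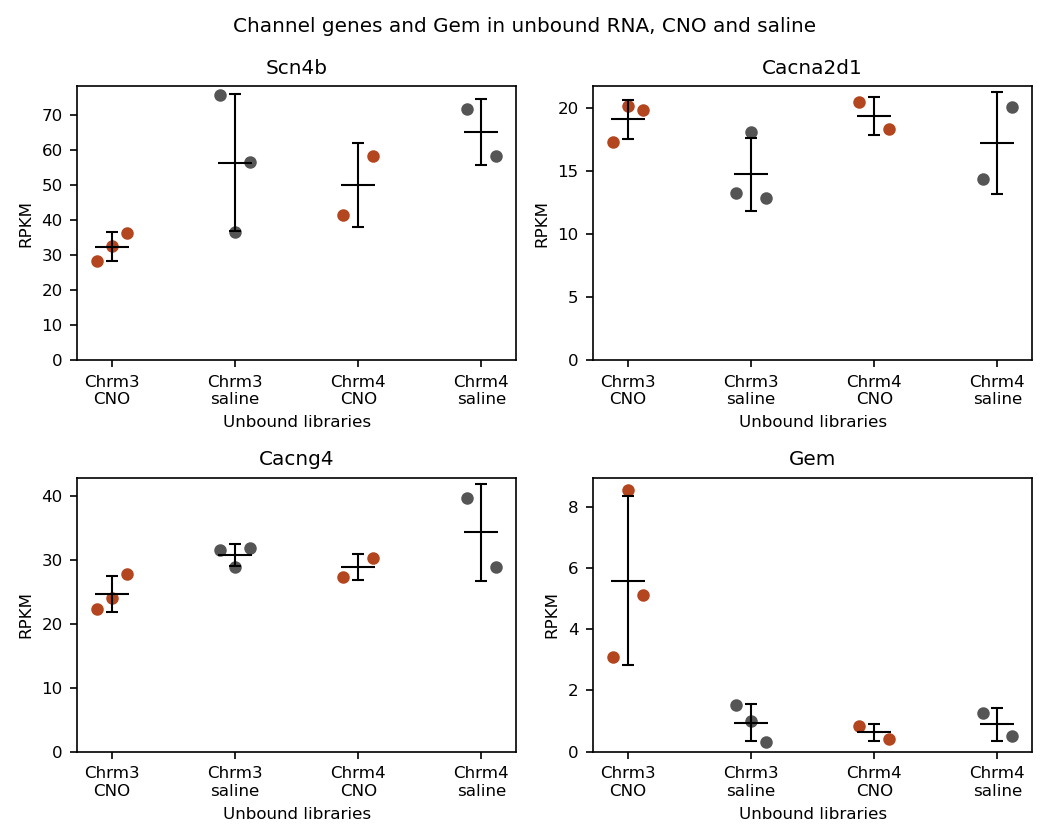
RPKM of Scn4b, Cacna2d1, Cacng4 and Gem in unbound RNA of Chrm3 and Chrm4 mice given CNO or saline; each point is a library, and bars show mean ± SD. Scn4b and Cacng4 lie lower and Gem higher in all 3 Chrm3 CNO libraries. Only Gem passed the adjusted threshold, in a test that it entered only through those CNO libraries.

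In Chrm3 microglial pull-downs 0 of 27 tested channel genes passed, against 0.0436% of all genes, and 2 had an unadjusted p under 0.05 (limma; voom called 0 and had 5). These were Scn4b and Cacna1i, the T-type pore that averaged 1.07 RPKM with CNO and 2.87 RPKM with saline (log2 difference -0.84, unadjusted p = 0.0375). No gene had non-overlapping groups, where 9.17% of all genes had. The median difference was -0.06, with 11 positive and 16 negative.

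In Chrm4 mice no channel gene was called in either fraction, where 0% of all genes passed. In unbound RNA 24 of 29 genes were negative with CNO, with a median of -0.16 against 0.01 over all genes, and 0 had an unadjusted p under 0.05 with limma or with voom. The CNO libraries of 5 genes (Cacng2, Cacna2d3, Cacna1a, Cacng8 and the second Scn8a identifier) lay below both saline libraries, against 16.3% of all genes tested. Cacng2, for example, averaged 20.6 ± 3.18 RPKM with CNO and 24.2 ± 0.0773 RPKM with saline (SD, n = 2 each), a log2 difference of -0.23 (95% interval -0.63 to 0.17). In the Chrm4 microglial pull-downs the CNO libraries of 9 of 27 genes lay above both saline libraries and those of 3 below, against 19.9% and 15.5% of all genes tested. There 1 gene had an unadjusted p under 0.05 with limma and 0 with voom. That gene was Cacng8, with 4.68 and 1.55 RPKM with CNO, against 0.574 and 0.260 RPKM with saline (log2 difference 1.43, unadjusted p = 0.0473, limma adjusted p = 0.999). The test of Chrm3 against Chrm4 responses called 0 channel genes in unbound RNA, where it called 0.0539% of all genes, and 0 in microglia, where it called 0%, with 1 gene at an unadjusted p under 0.05 in each (voom 0 and 2).

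In the D1 line nearly every tested channel gene had more RPKM in the D1 pull-down than in unbound RNA, and so had most genes. In the libraries labelled Il34 knockout 28 of 29 tested genes were higher and 0 lower, where 85.0% of all genes tested were higher and 5.92% lower, and in those labelled control also 28 and 0, where 84.8% were higher and 6.84% lower (limma adjusted p under 0.05). The same 28 were called in both, and Cacng7 was the exception. Of the 28, Cacng1 and Scn8a (ENSMUSG00000090536) reached the mean of 1 RPKM needed for the test only through the pull-downs. With the control label they averaged 0.915 and 0.777 RPKM in unbound RNA, against 2.57 and 1.39 RPKM in the pull-downs. Their higher calls were favoured by that filter and are no support for enrichment. All genes tested had a median difference of 0.85 in knockout-labelled and 0.81 in control-labelled libraries, and the channel genes 1.01 and 0.93. The columns differed in total too: RPKM summed to 262124 to 273112 in the knockout-labelled and 262013 to 267186 in the control-labelled pull-downs, against 154263 to 169739 and 149164 to 169682 in their unbound RNA. Directions relative to this shift were therefore read after quantile scaling, which brought the median of all genes to 0.08 and 0.10 and called 33.4% and 35.2% of them higher and 23.7% and 22.3% lower.

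On the scaled values 12 channel genes were higher and 4 lower in the knockout-labelled D1 pull-downs, and 12 higher and 3 lower in the control-labelled ones. As shares of the tested genes, the higher counts were not far above those of all genes given above. The lower counts were under theirs. The 11 higher with both labels were the pores Cacna1a, Cacna1b, Cacna1h and Cacna1i, the auxiliary genes Cacna2d3, Cacnb1 and Cacnb3, the gamma genes Cacng1 and Cacng3, and the sodium channel beta genes Scn2b and Scn4b. Of these, Cacng1 was tested only through its pull-down level. Cacng7 and Scn1a were lower with both. Fitted by voom on recovered reads, 10 and 8 genes were higher and 3 and 3 lower. Of the 11, Cacna1h, Cacna1i and Cacng1 were not called by voom with both labels, and Cacng7 and Scn1a were again lower with both. Without library 1 of each D1-line group, 28 genes were again higher and 0 lower with either label on the deposited scale. After scaling, the counts were then 13 higher and 2 lower with the knockout label and 12 higher and 2 lower with the control label. The 11 genes above were among those higher with both labels and Cacng7 was lower with both, while Scn1a missed the threshold with the knockout label (limma adjusted p = 0.0631). Shares of all genes by voom and without library 1 are not given here, so those counts have no background beside them.

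Scn4b was the highest member in D1 neurons. It had 151.3, 201.0 and 172.4 RPKM in the knockout-labelled pull-downs and 140.0, 162.7, 176.3 and 231.5 RPKM in the control-labelled pull-downs, against 43.8, 57.7, 58.0 and 61.2 RPKM in the knockout-labelled and 46.3, 50.6, 61.8 and 76.2 RPKM in the control-labelled unbound RNA. Pull-down and unbound libraries were far apart with either label. The deposited values gave a log2 difference of 1.58 ± 0.17 with the control label (SE; limma adjusted p = 1.16e-07). After scaling it was 0.55 ± 0.21 with the knockout label (limma adjusted p = 0.0352) and 0.54 ± 0.20 with the control label (limma adjusted p = 0.0289). Its neighbour Scn2b averaged 99.1 ± 13.6 RPKM in the control-labelled pull-downs and 36.9 ± 2.59 RPKM in their unbound RNA (SD, n = 4 each), with a scaled difference of 0.35 ± 0.11 (limma adjusted p = 0.0152).

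The calcium channel genes with the largest deposited differences remained higher after scaling. Cacnb1, which also serves the muscle channel, had 24.8, 25.7 and 24.3 RPKM in knockout-labelled and 21.3, 29.9, 26.1 and 23.2 RPKM in control-labelled pull-downs, against 6.61 to 8.58 RPKM and 7.89 to 8.83 RPKM in unbound RNA. The scaled difference was 0.63 ± 0.08 with the knockout label and 0.56 ± 0.08 with the control label (SE; limma adjusted p = 1.42e-05 and 2.25e-05), the highest among the channel genes. Cacna2d3 had 42.8, 51.8 and 46.9 RPKM in knockout-labelled and 39.7, 47.4, 51.6 and 56.4 RPKM in control-labelled pull-downs, against 13.9 to 18.1 and 15 to 19.5 RPKM in unbound RNA, and scaled differences of 0.47 ± 0.15 and 0.42 ± 0.13. The groups of both genes were fully apart.

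Presynaptic and AMPA-receptor-linked members followed. Cacna1b had 10.5, 12.9 and 13.6 RPKM in knockout-labelled and 12, 11.6, 12.6 and 14 RPKM in control-labelled pull-downs, against 4.19 to 5.33 and 4.61 to 5.13 RPKM in unbound RNA. Its scaled difference was 0.33 ± 0.10 with the knockout label and 0.39 ± 0.10 with the control label (limma adjusted p = 0.0125 and 0.00275). Cacng3 had 86.5, 99.6 and 104.7 RPKM in knockout-labelled and 76.8, 100.4, 93.1 and 83.3 RPKM in control-labelled pull-downs, against 29.7 to 36.9 and 27.5 to 34.2 RPKM in unbound RNA, with scaled differences of 0.47 ± 0.10 and 0.41 ± 0.09. Scn8a (ENSMUSG00000023033), at 29.9, 33.4 and 33.9 and at 29.0, 30.7, 33.7 and 37.7 RPKM in the pull-downs, against 13.4 to 17.2 and 14 to 17.6 RPKM in unbound RNA, moved only as far as genes in general did, with scaled differences of 0.02 ± 0.09 with either label.

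Cacng7 and Scn1a stood apart from their classes. Cacng7 had 26.7, 23.1 and 16.3 RPKM in knockout-labelled and 14.5, 21.9, 19.3 and 21 RPKM in control-labelled pull-downs, against 25.2, 17.9, 16.2 and 17.5 and 21.4, 21.3, 21.7 and 18.5 RPKM in unbound RNA. Its deposited levels overlapped, and after scaling it was the lowest gene, at -0.81 ± 0.14 with the knockout label and -1.06 ± 0.13 with the control label (SE; limma adjusted p = 0.000165 and 6.07e-06). Scn1a had 9.74, 11.5 and 9.49 RPKM in knockout-labelled and 10.1, 9.61, 10.5 and 10.2 RPKM in control-labelled pull-downs, against 6.10 to 8.19 and 5.45 to 8.23 RPKM in unbound RNA. It was higher on the deposited scale, by 0.44 ± 0.11 with the control label, and lower after scaling, at -0.36 ± 0.10 and -0.38 ± 0.09 (limma adjusted p = 0.00656 and 0.00289). For both genes, then, the pull-down held less than for the median gene.

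**Figure D4:**
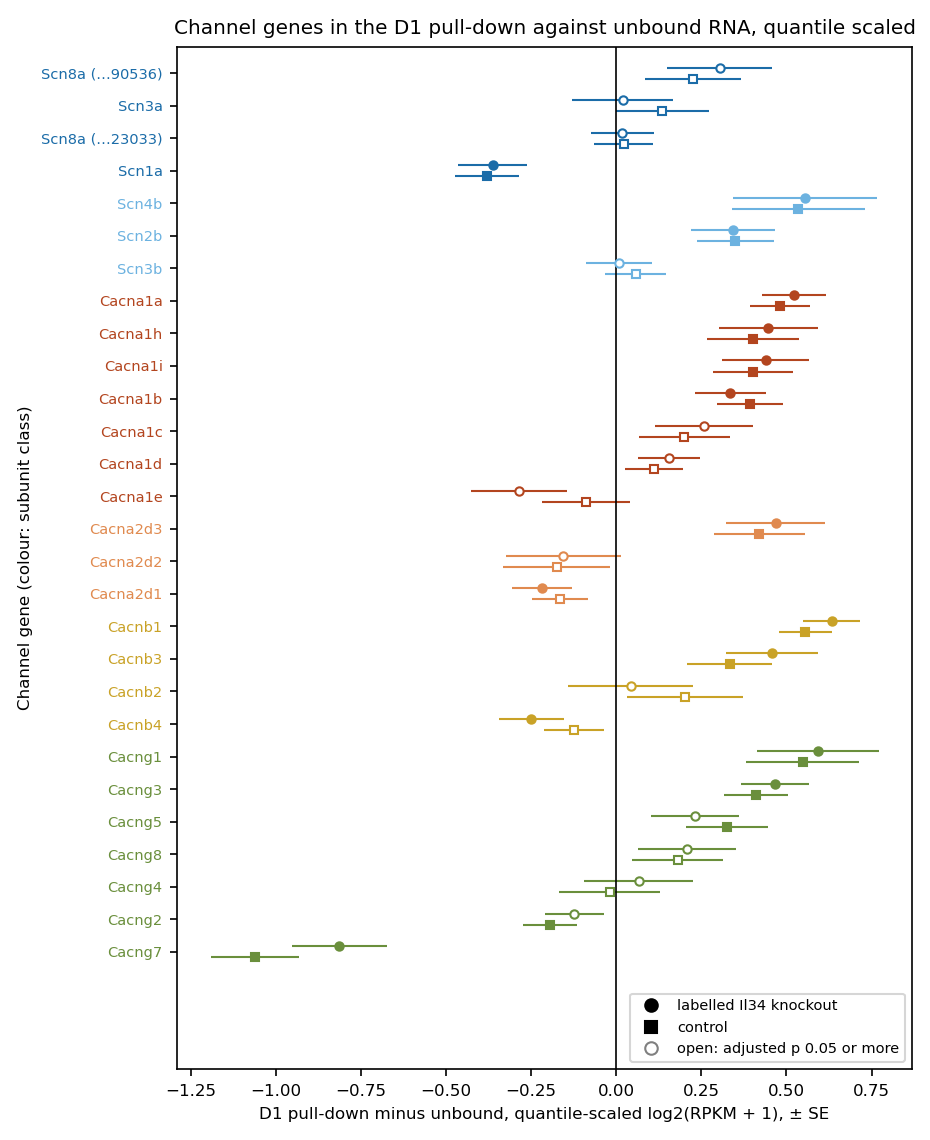
Log2 difference, D1 pull-down minus unbound RNA after quantile scaling, for the tested channel genes (rows by class), with libraries labelled Il34 knockout as circles and control as squares; bars are ± SE and open symbols missed adjusted p 0.05. Cacnb1, Cacng1 and Scn4b lie to the right, Cacng7 and Scn1a to the left.

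Between the libraries labelled Il34 knockout and control no channel gene differed past the threshold. In D1 pull-downs 0 of 29 tested genes passed, where 0.00957% of all genes did, and in unbound RNA 0 of 27, where 0% did; in both, 0 genes had an unadjusted p under 0.05 with limma or with voom. The label effect did not differ between the fractions for any gene either (0 called, 0% of all genes). In D1 neurons the log2 differences ran from -0.22 for Cacnb2 to 0.18 for Cacng7, and all 95% limits fell between -0.53 and 0.57. Cacng7 was highest, at 26.7 RPKM, in knockout-labelled library 1, which also had the most cortical marker RNA of its group. Without library 1 of each group, 0 channel genes again passed in either fraction. In unbound RNA they ran from -0.13 to 0.11, with 24 of 27 negative, with a lower limit of -0.45 for Cacnb2 and an upper limit of 0.37 for Cacng5. The median was -0.05, against -0.03 over all genes. Every gene had overlapping groups in both fractions, and 2.77% of all genes in D1 pull-downs and 0.822% in unbound RNA did not.

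Scn4b and Cacnb4 show the spread behind these values. The knockout-labelled D1 pull-downs had 77.5, 87.3 and 93.9 RPKM of Cacnb4, against 109.8, 91.2, 89.2 and 92.3 RPKM in the control-labelled ones. The groups overlapped, with knockout-labelled library 1 the lowest and control-labelled library 1 the highest. The Scn4b ranges given above overlapped between the labels in both fractions. The 7 tested of the 8 microglial markers were all negative in unbound RNA, none past the threshold (median -0.52). All 8 summed to 13.9 to 27.0 RPKM in knockout-labelled and 30.2 to 36.0 RPKM in control-labelled unbound libraries. Because the Il34 levels overlapped between the labels in both fractions, these comparisons describe the labels.

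**Figure D5:**
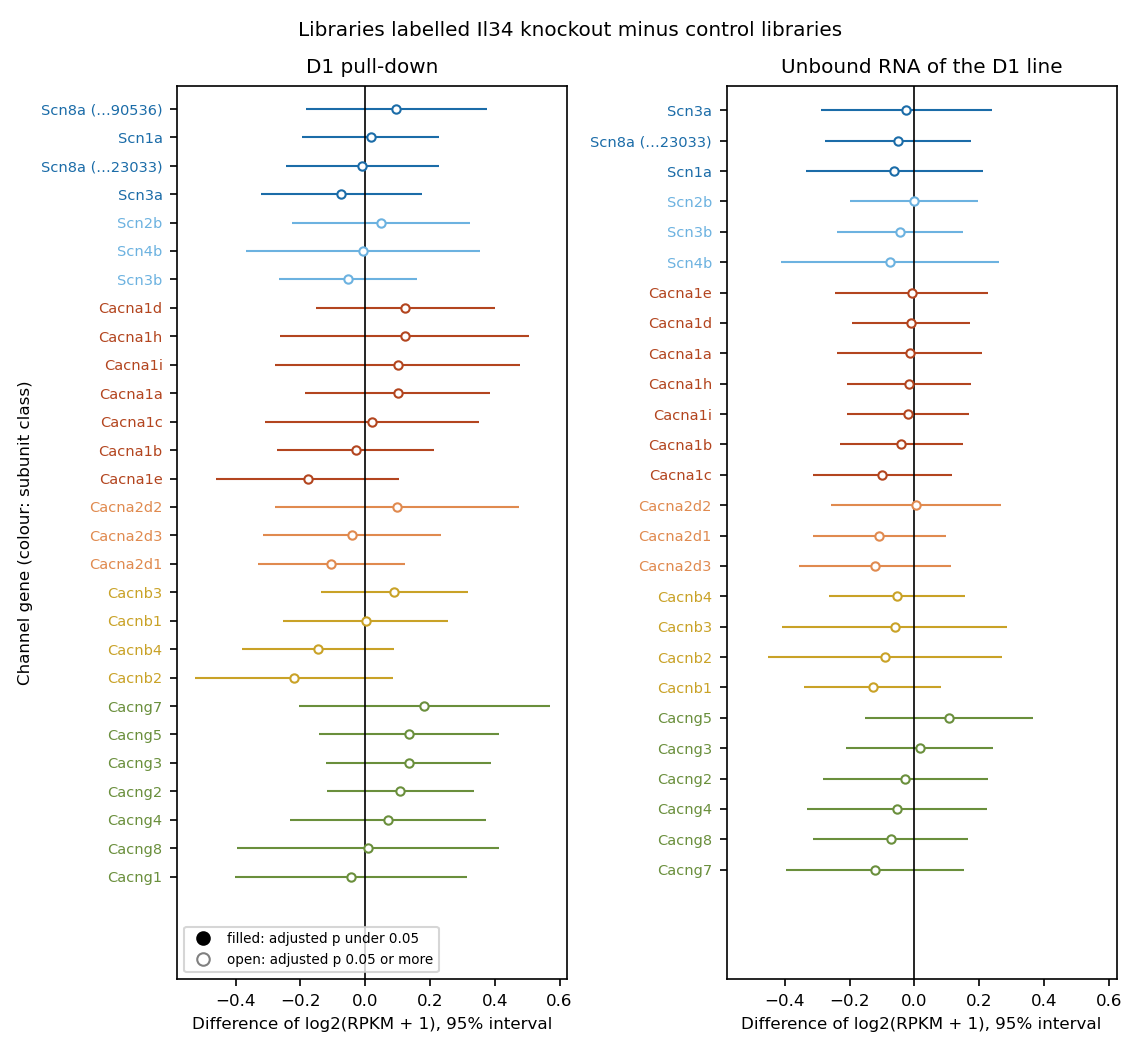
Log2 difference of RPKM + 1, libraries labelled Il34 knockout minus control, for the tested channel genes in D1 pull-downs and in unbound RNA; points are limma estimates and bars 95% confidence intervals. All intervals drawn include 0 and lie between -0.53 and 0.57.

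Scn2a1 (chr2:65620771-65767447, plus strand), outside the rule, lay on the same side as the tested pore genes inside it on the deposited scale. In the control-labelled D1 pull-downs 84.8% of all genes tested were higher on that scale. No scaled value of Scn2a1 is given here, and the scaled pore genes did not share a side. It averaged 13.5 RPKM in microglial pull-downs and 38.0 RPKM in unbound RNA of saline mice (log2 difference -1.48), and 38.7 ± 2.8 RPKM in control-labelled D1 pull-downs and 17.5 ± 1.1 RPKM in their unbound RNA (SD, n = 4 each). In Chrm3 unbound RNA it had 36.3, 40.1 and 41.5 RPKM with CNO, against 35.7, 45.4 and 35.0 RPKM with saline, and the groups overlapped. With it included, the pore genes abundant in striatum were Scn2a1, Scn8a and Scn1a for sodium and Cacna1e and Cacna1b for calcium.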

How the data were processed

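Libraries were made with NuGEN Ovation V2 and TruSeq kits and sequenced on a NextSeq 500, per the labels' protocols. The deposited values are RPKM calculated by the authors, in 2 tables. Tools listed in the submitters' processing notes are TopHat2 2.1.0, HTSeq 0.6.0, bcl2fastq and DESeq2, on the build mm9. Roles, annotation and strand setting are not given in the sources used here. Positions were joined by Ensembl identifier from GENCODE M21 on GRCm38, and promoters by symbol from RefSeq. The 35 libraries in 12 groups were used, and 1 striatal nuclei sample was not analysed here. Columns were matched to groups by their headings, which carry no replicate numbers.

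The fits used log2(RPKM + 1) and limma 3.58.1 under R 4.3.3 (moderated test with trend, two-sided). Genes needed a mean of 1 RPKM over the libraries of a fit, p-values were Benjamini-Hochberg adjusted over all genes tested, and calls used an adjusted p under 0.05. Microglial and unbound libraries of the Chrm mice were fitted apart for CNO, and all 20 together for differences between fractions, where libraries were treated as independent. In the D1 line, fits held 7, 8 or 15 libraries. Whole reads were recovered from the RPKM steps for 99.9945% of 18102 genes in the D1 table and 100% of 18090 in the other (within 0.0001 reads). On those reads, voom called 119 genes higher and 13 lower for Chrm3 CNO in unbound RNA. Reads carry no molecular identifiers, so depth bounds counting error only. The scripts were tested on simulated data.

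Of the 40 genes, 2 enter the fits and counts but are not reported or drawn here. The genes, lists and tests were chosen with earlier results of these data known. Values of every library are given for the 2 highest genes of each class in unbound RNA and for the largest rise and fall of each class between fractions. CNO and label comparisons would name every gene called. Genes named there without a call, and Gem's and Cacna1s's library values, were chosen after their values were seen.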

Additional observations from a re-analysis of the deposited data

Results flagged for a closer look

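Among 80 values of a channel gene in a group of 4 libraries, 2 had a library far from the others. Chance alone would mark about 1 in 20. Cacnb4 had 109.8 RPKM in control-labelled D1 pull-down library 1, against 89.24 to 92.31 RPKM in the other libraries of that group. Cacng7 had 18.5 RPKM in control-labelled unbound library 4 of the D1 line, against 21.32 to 21.75 RPKM in the others.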

How the results depend on the processing

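The comparisons of CNO with saline rest on groups of 2 or 3 libraries and cannot exclude differences inside the intervals given, and genes under 1 RPKM were not tested. No paired analysis was possible because the columns carry no replicate numbers. Leaving out single libraries gave 22 to 26 channel genes lower in the microglial pull-down with CNO and 25 to 26 with saline, and 28 to 29 (knockout label) and 28 (control label) higher in the D1 pull-down. For Chrm3 CNO in unbound RNA it gave 0 to 1 lower, and 8 to 91 genes higher and 0 to 24 lower over the whole table.

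Without a filter, 1 gene was higher in the microglial pull-down with CNO and 1 with saline (Cacna1s in both), 2 were lower in the D1 pull-down with the knockout label and 1 with the control label, and 1 gene of the whole table was higher with Chrm3 CNO in unbound RNA. In the D1 pull-down, quantile scaling called 12 higher and 4 lower with the knockout label and 12 and 3 with the control label; voom called 10 and 3, and 8 and 3. The genes that turned negative under quantile scaling were, with the knockout label, Cacna1e -0.28, Cacna2d2 -0.16, Cacnb4 -0.25, Cacng2 -0.12, Cacna2d1 -0.22 and Scn1a -0.36, and with the control label Cacna1e -0.089, Cacna2d2 -0.17, Cacnb4 -0.12, Cacng2 -0.20, Cacng4 -0.019, Cacna2d1 -0.16 and Scn1a -0.38. Under voom they were, with the knockout label, Cacna1e -0.29, Cacna2d2 -0.21, Cacna1d -0.061, Cacnb4 -0.18, Cacng2 -0.13, Cacna2d1 -0.25, Scn3a -0.037 and Scn1a -0.45, and with the control label Cacna1e -0.046, Cacna2d2 -0.24, Cacna1d -0.20, Cacnb4 -0.023, Cacng2 -0.21, Cacna2d1 -0.19, Cacng8 -0.040, Scn1a -0.48 and Scn8a (ENSMUSG00000090536) -0.13. With quantile scaling and without library 1 of each D1-line group, an alternative chosen after seeing the data, the counts were 13 higher and 2 lower with the knockout label and 12 and 2 with the control label. Those that turned negative were then, with the knockout label, Cacna1e -0.27, Cacna2d2 -0.16, Cacnb4 -0.21, Cacng2 -0.076, Cacna2d1 -0.14, Cacnb2 -0.062, Scn3b -0.0096, Scn3a -0.015 and Scn1a -0.28, and with the control label Cacna1e -0.090, Cacna2d2 -0.15, Cacnb4 -0.17, Cacng2 -0.14, Cacng4 -0.022, Cacna2d1 -0.17 and Scn1a -0.34. These methods centre the libraries on each other, which removes the shift shared by most genes. Shares of all genes by voom and without library 1 are not given here.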
